A study of Mus musculus with 16 samples.

Results

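The genes described here are 10 markers of Kupffer cells and other macrophages, read out in whole liver. They are the rows of the deposited normalized-count table whose symbol is Clec4f, Vsig4, Timd4, Marco, Cd5l, Adgre1, C1qa, C1qb, C1qc or Lyz2. The first 5 mark resident Kupffer cells and the other 5 mark macrophages in general. All 10 were found among 30199 genes, and all 10 passed the filter that left 15263 genes for testing. Messenger RNA was sequenced from a frozen piece of liver of 16 female mice aged 5 months, 1 library per mouse. The mice were wild type, Ncoa5+/-, Tip30+/- or Ncoa5+/-Tip30+/-, with 4 mice of each genotype, all on a standard diet. Every deletion was heterozygous. Ncoa5 codes for a protein that tunes nuclear receptor activity, and Tip30 is listed in the table under its gene symbol, Htatip2. The sources used here name neither the mouse strain nor the deleted part of each gene. Cells were not sorted, and in such bulk tissue fewer macrophages and less RNA per macrophage cannot be told apart. The labels call the tissue mainly hepatocyte, and none of the 9 hepatocyte markers tested was at 0 in any library.

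Kupffer cells are the macrophages that live in the liver sinusoids, where they clear bacteria, dead cells, aged red cells and lipoproteins from the blood. Most descend from embryonic precursors, and their identity is kept by signals from sinusoidal endothelial cells, stellate cells and hepatocytes, among them Notch ligands, TGF-beta family members and colony stimulating factor 1. When Kupffer cells are lost, blood monocytes can settle in the niche, and Timd4 is among the last resident markers such cells acquire. Clec4f, Vsig4 and Marco are surface receptors, Cd5l is a secreted scavenger protein, and C1qa, C1qb and C1qc encode the 3 chains of C1q, the first component of the classical complement pathway, most of which is made by macrophages.

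No marker was called by limma in the 5 comparisons of genotypes that were fitted, which leave out Ncoa5+/- against Tip30+/-. The 10 genes varied together from liver to liver, and 2 mice stood at the ends of the range. Wild type 4 had the lowest value of 9 of the 10 genes, and Ncoa5+/- 3 had the highest value of 7. The 3 C1q genes were higher with the Ncoa5 deletion by 0.53 to 0.54 on the log2 scale, just short of the threshold in limma and past it in DESeq2. DESeq2 called more of all genes there, 1803 against 1205 in limma. In 3 lists of other macrophage-linked genes, 2 of 18, 4 of 26 and 2 of 17 passed with the Ncoa5 deletion, against 7.89% of all genes (limma). Itgax, Notch1 and Csf2ra were among them, and Itgax and Notch1 are not limited to macrophages.

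Each library held 24740706 to 37939978 reads in genes, and mitochondrial genes took 3.42% to 5.80% of them. Htatip2 was 685 to 1088 normalized counts in the 8 mice with the Tip30 deletion and 1835 to 2910 in the other 8, so its level follows the labels. Ncoa5 was 339 to 480 normalized counts over all 16 mice and did not separate the mice labelled Ncoa5+/- from the rest. Zhx2, a liver repressor that varies among mouse strains, was 8.77 to 26.3 in Ncoa5+/- 4, Ncoa5+/- 1, wild type 1 and wild type 2, and 167 to 438 in the other 12. Mouse numbers in the labels fall below or above 4300, with 9 and 7 mice, and wild type 3 and wild type 4 are the wild types of the higher range.

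The genes lie apart in the genome except for C1q. In GRCm38, C1qb (chr4:136880129-136886187), C1qc (chr4:136889804-136893065) and C1qa (chr4:136895917-136898803) follow each other on the minus strand of chromosome 4. Clec4f is at chr6:83644542-83656187 (minus), Vsig4 at chrX:96247203-96293438 (minus) and Timd4 at chr11:46810800-46844332 (plus). Marco is at chr1:120474538-120505024 (minus), Cd5l at chr3:87357881-87371073 (plus), Adgre1 at chr17:57358691-57483527 (plus) and Lyz2 at chr10:117277331-117282321 (minus). None shares an exon base with another annotated gene, but Lyz2 has a near-identical neighbour, Lyz1, so the split of reads between those 2 genes is uncertain.

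Promoter sequences are shown for genes whose levels rose and fell together across livers, from RefSeq (GRCm38.p6), which held 8 of the 10 genes, all but Adgre1 and C1qa. The C1qb and C1qc sequences belong to the most tightly coupled genes, and Vsig4, Cd5l and Timd4 to resident markers. Capitals mark a PU box, the purine-rich element GAGGAA or its reverse complement TTCCTC, of the kind bound by the macrophage factor PU.1. Each sequence runs 5′ to 3′ on the gene's own strand, up to the annotated start and outside the gene.
C1qb (chr4:136886201-136886450, minus): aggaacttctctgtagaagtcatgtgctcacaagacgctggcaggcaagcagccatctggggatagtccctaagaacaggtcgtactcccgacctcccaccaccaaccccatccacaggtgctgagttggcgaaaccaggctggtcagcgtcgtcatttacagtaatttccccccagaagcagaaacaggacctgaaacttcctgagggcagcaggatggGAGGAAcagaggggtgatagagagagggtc
C1qc (chr4:136893066-136893164, minus): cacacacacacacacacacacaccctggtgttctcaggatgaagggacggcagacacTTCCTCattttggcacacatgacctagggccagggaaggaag
Vsig4 (chrX:96293439-96293688, minus): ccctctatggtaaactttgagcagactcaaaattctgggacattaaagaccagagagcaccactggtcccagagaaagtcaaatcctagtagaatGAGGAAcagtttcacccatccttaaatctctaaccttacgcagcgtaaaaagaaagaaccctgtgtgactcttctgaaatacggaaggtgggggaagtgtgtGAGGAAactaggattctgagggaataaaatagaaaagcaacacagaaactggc
Cd5l (chr3:87357631-87357880, plus): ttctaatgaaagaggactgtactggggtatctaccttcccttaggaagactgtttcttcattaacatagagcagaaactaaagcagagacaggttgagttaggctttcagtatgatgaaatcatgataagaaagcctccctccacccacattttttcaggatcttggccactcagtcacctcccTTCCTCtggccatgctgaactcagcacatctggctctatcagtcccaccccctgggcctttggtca
Timd4 (chr11:46810549-46810798, plus): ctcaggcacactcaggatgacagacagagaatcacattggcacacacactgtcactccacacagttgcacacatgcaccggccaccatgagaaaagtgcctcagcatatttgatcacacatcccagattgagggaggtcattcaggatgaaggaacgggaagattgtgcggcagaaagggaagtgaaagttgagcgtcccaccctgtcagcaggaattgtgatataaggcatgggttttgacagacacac

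Searched on both strands over the 250 bases before the start, GAGGAA was found in 5 of the 8 promoters (Vsig4, Marco, Cd5l, C1qb and C1qc) and in 23.3% of 32851 promoters of that length. TGCTGA, the core of sites for Maf factors, was found in 5 of 8 and in 16.1% of all, and AGGTCA, the nuclear receptor element, in 3 of 8 and in 14.0%. Vsig4 held 2 PU boxes, C1qb, C1qc and Cd5l 1 each and Timd4 none. A match is a string of letters and not evidence of binding, and its absence is limited to this window.

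Clec4f, a Kupffer-specific lectin receptor for galactose-type sugars, had the highest count of the 10. Wild type 1 to 4 had 3308, 3271, 3092 and 1364 normalized counts. Ncoa5+/- mice had 3083, 3721, 5688 and 4145, Tip30+/- mice 3615, 2899, 2848 and 2938, and Ncoa5+/-Tip30+/- mice 2571, 5012, 4265 and 3251. Thus 3 of 4 Ncoa5+/- mice lay above every wild type, and the 4th lay below 3 of them. The group means were 2759 ± 934, 4159 ± 1109, 3075 ± 362 and 3775 ± 1079 (SD, n = 4 each, in the same order). The log2 change of Ncoa5+/- against wild type was 0.64 ± 0.27 (SE), a 1.56-fold difference with an adjusted p of 0.419 (limma).

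Vsig4, the complement receptor CRIg that captures C3-coated bacteria, had values of 597, 476, 411 and 216 in wild type and 447, 506, 1088 and 659 in Ncoa5+/-. It had 599, 493, 577 and 546 in Tip30+/- and 343, 683, 568 and 477 in Ncoa5+/-Tip30+/-. The Ncoa5+/- group was wide because of 1 mouse, Ncoa5+/- 3, and overlapped wild type. Its log2 change against wild type was 0.67 ± 0.31 (adjusted p = 0.477, limma), and that of Tip30+/- was 0.47 ± 0.31 (adjusted p = 0.786).

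Timd4, the phosphatidylserine receptor TIM-4 used to engulf dying cells, had 184, 163, 150 and 62.8 normalized counts in wild type and 152, 129, 345 and 220 in Ncoa5+/-. It had 169, 129, 180 and 185 in Tip30+/- and 160, 244, 192 and 197 in Ncoa5+/-Tip30+/-. Every mouse other than wild type 4 and Ncoa5+/- 3 lay between 129 and 244. Its log2 changes against wild type were 0.60 ± 0.32 in Ncoa5+/-, 0.34 ± 0.32 in Tip30+/- and 0.59 ± 0.32 in Ncoa5+/-Tip30+/-, with adjusted p of 0.560, 0.846 and 0.288 (limma).

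Marco, a scavenger receptor for bacteria and particles, was the rarest of the 10, with 5 to 59 reads per library. Its values were 34.8, 52.6, 46.8 and 11.2 in wild type, 31.5, 26.5, 61.4 and 57.5 in Ncoa5+/-, 14.5, 26.1, 45.7 and 22.5 in Tip30+/-, and 5.95, 24.5, 18.2 and 43.3 in Ncoa5+/-Tip30+/-. It was the only one of the 10 with its lowest value outside wild type 4, in Ncoa5+/-Tip30+/- 1. Ncoa5+/-Tip30+/- differed from Ncoa5+/- by -1.11 ± 0.55 on the log2 scale (adjusted p = 0.573, limma), and the 95% interval ran from -2.27 to 0.05.

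Cd5l, the secreted protein AIM that binds lipids and tags debris, spanned 727 to 4003 normalized counts. Wild type had 1860, 1974, 1515 and 727, Ncoa5+/- 1418, 1712, 4003 and 2649, Tip30+/- 1986, 1340, 1416 and 1857, and Ncoa5+/-Tip30+/- 955, 2396, 2272 and 1742. The lower pair of Ncoa5+/- mice lay within the wild-type values and the upper pair above them. The log2 change of Ncoa5+/- was 0.67 ± 0.38 (adjusted p = 0.603, limma).

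**Figure D1:**
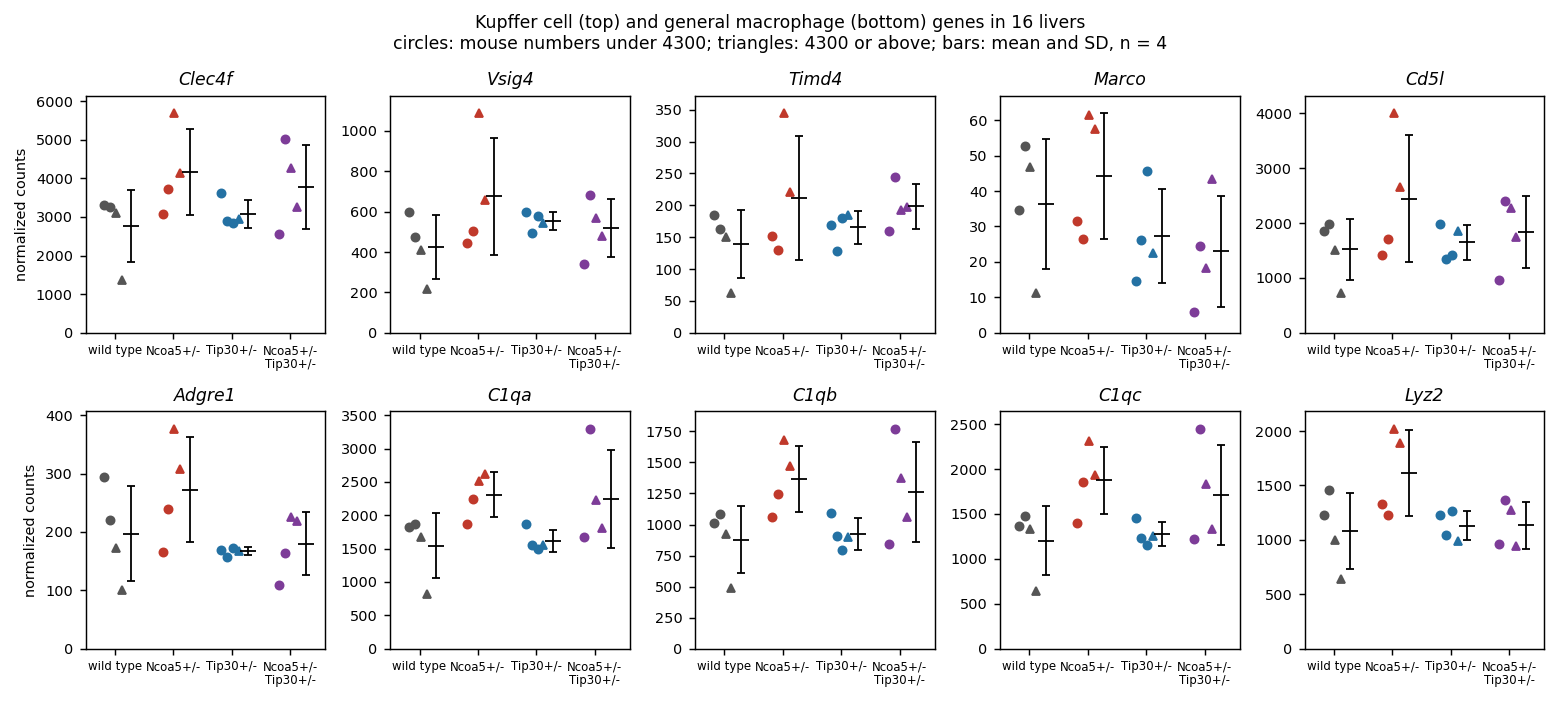
Normalized counts (y axis, linear, from 0) of the 10 genes in each liver by genotype, with circles for mouse numbers under 4300, triangles for 4300 or above, and the mean and SD of 4 mice. Wild type 4, the lowest triangle of the wild types, and Ncoa5+/- 3, the highest triangle of Ncoa5+/- in 9 of the panels, stand at the ends of the range in most panels, and no genotype with a deletion is separated from wild type in any panel.

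The C1q chains gave patterns close to each other. C1qa had 1816, 1868, 1679 and 816 normalized counts in wild type, 1862, 2245, 2511 and 2617 in Ncoa5+/-, 1862, 1555, 1494 and 1557 in Tip30+/-, and 1667, 3295, 2221 and 1811 in Ncoa5+/-Tip30+/-. C1qb had 1011, 1086, 924 and 486, then 1064, 1249, 1678 and 1474, then 1097, 909, 793 and 896, then 843, 1771, 1377 and 1063 in the same order. C1qc had 1365, 1482, 1327 and 637, then 1394, 1853, 2314 and 1929, then 1460, 1230, 1159 and 1252, then 1223, 2447, 1831 and 1335. For each chain 3 of 4 Ncoa5+/- mice exceeded every wild type, and the 4th, Ncoa5+/- 1, lay within the wild-type range. Ncoa5+/-Tip30+/- 2 had the highest value of all 3 chains. The C1q changes of Ncoa5+/- against wild type were 0.64 ± 0.24, 0.68 ± 0.25 and 0.69 ± 0.26 for C1qa, C1qb and C1qc, with adjusted p of 0.355, 0.337 and 0.348 (limma).

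Adgre1, formerly Emr1, encodes the classic surface antigen used to stain mouse macrophages. It had 295, 220, 172 and 101 normalized counts in wild type, 166, 240, 377 and 309 in Ncoa5+/-, 170, 157, 173 and 168 in Tip30+/-, and 110, 165, 225 and 220 in Ncoa5+/-Tip30+/-. The Tip30+/- mice were close to each other, at 167 ± 7.1 (SD, n = 4), within the wild-type spread of 197 ± 81.5. The log2 change of Ncoa5+/- was 0.51 ± 0.30 (adjusted p = 0.616, limma).

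Lyz2, the lysozyme gene of myeloid cells, had 1231, 1455, 996 and 637 normalized counts in wild type and 1332, 1230, 2020 and 1889 in Ncoa5+/-. It had 1227, 1042, 1263 and 987 in Tip30+/- and 960, 1364, 1273 and 938 in Ncoa5+/-Tip30+/-. The upper Ncoa5+/- values belong to the mice numbered above 4300, and the lower pair fell within wild type. Its log2 change in Ncoa5+/- was 0.61 ± 0.22 (adjusted p = 0.337, limma), and Ncoa5+/-Tip30+/- differed from Ncoa5+/- by -0.50 ± 0.22 (adjusted p = 0.542).

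Read by comparison, Ncoa5+/- livers had higher mean levels of all 10 genes than wild type, with a median log2 difference of 0.64 and a range of 0.39 to 0.69. Over all genes tested 47.5% were higher and the median was -0.01. None of the 10 was called at an adjusted p below 0.05 by limma, edgeR or DESeq2, against 0.557% of all genes called by limma. At an unadjusted p below 0.05 there were 6 of 10, against 10.2% of all genes. These 10 genes vary together, so their counts are not independent of each other. Leaving out wild type 4 lowered the median difference to 0.35, with 9 of 10 genes still higher and the lowest adjusted p at 0.640.

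Against wild type, Tip30+/- livers had a median log2 difference of 0.14 (range -0.32 to 0.47), with 8 of 10 genes higher and none called by limma, edgeR or DESeq2. The share called over all genes was 0.0131%. None of the 10 had an unadjusted p below 0.05 (limma), against 7.34% of all genes. Without wild type 4 the median was -0.13 and only Vsig4 was higher. Ncoa5+/-Tip30+/- livers had a median difference of 0.41 (range -0.72 for Marco to 0.59 for Timd4), with 8 of 10 higher, 0 called by any of the 3 tools and 2, C1qa and C1qb, at an unadjusted p below 0.05. Over all genes 2.67% were called there and 22% had an unadjusted p below 0.05 (limma), so 2 of 10 is near that share. Without wild type 4 that median was 0.11 with 6 of 10 higher.

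The log2 differences in the 2 comparisons among mice with deletions do not use the wild types. Their p-values do, through the spread that all 16 libraries share in the fit. All 10 means were lower in Ncoa5+/-Tip30+/- than in Ncoa5+/-, with a median of -0.25 and 0 called against 0.0197% of all genes. At an unadjusted p below 0.05 (limma) there was 1, Lyz2, against 8.93% of all genes. Timd4 differed by less than 0.01 there and was higher under 2 other scalings. Against Tip30+/-, Ncoa5+/-Tip30+/- livers had 7 of 10 higher, a median of 0.17 and 0 called, against 3.07% of all genes. None of the 10 was below an unadjusted p of 0.05 (limma), against 23.2% of all genes. edgeR and DESeq2 also called 0 of the 10 in both comparisons.

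In these 5 comparisons none of the 10 genes had all mice of 1 genotype above all mice of the other. The share of all genes whose groups did not overlap was 5.67% for Ncoa5+/- against wild type, 4.44% for Tip30+/- against wild type and 10.7% for Ncoa5+/-Tip30+/- against wild type. It was 4.8% for Ncoa5+/-Tip30+/- against Ncoa5+/- and 16.2% against Tip30+/-. In the 2-sided exact permutation test the lowest p over 50 tests, 0.0571, was that of C1qa, C1qb and C1qc in Ncoa5+/- against wild type, where 4 mice against 4 can reach 0.0286. Adjusted over the 50 tests (Benjamini-Hochberg) it was 0.612. Ncoa5+/- and Tip30+/- were not set against each other in these tests. Between them 1 of the 10 genes did not overlap, C1qa, by less than 1 normalized count (lowest Ncoa5+/- mouse 1861.81, highest Tip30+/- mouse 1861.52), against 11.9% of all genes. That was looked at after the values were seen, and it carries no test.

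**Figure D2:**
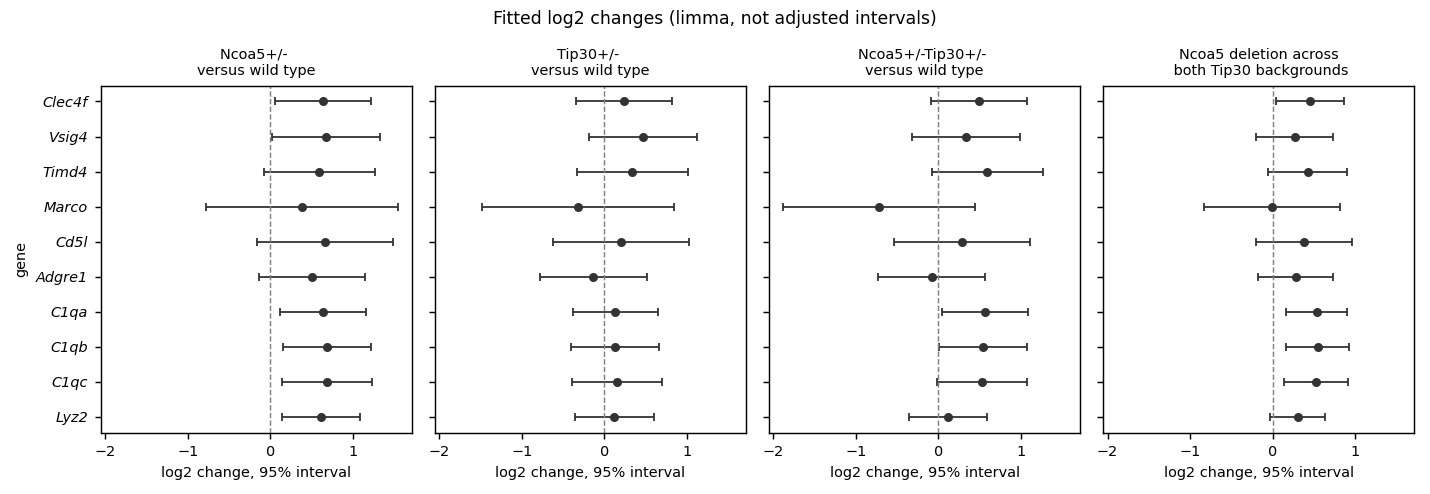
Fitted log2 changes (x axis, points) with 95% intervals (bars, limma, n = 4 mice per genotype, not adjusted for multiple testing) of the 10 genes in the 3 comparisons with wild type and in the Ncoa5 deletion averaged over both Tip30 backgrounds. Intervals are widest for Marco, and in the panel of the Ncoa5 deletion those of C1qa, C1qb, C1qc and Clec4f lie above 0.

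Averaged over both Tip30 backgrounds, the Ncoa5 deletion compares 8 mice with 8. Of the 10 genes, 9 were higher, with a median log2 change of 0.40. C1qa changed by 0.53 ± 0.17, C1qb by 0.54 ± 0.18 and C1qc by 0.53 ± 0.18, with adjusted p of 0.0677, 0.0698 and 0.0824 (limma). Clec4f followed at 0.45 ± 0.19 (adjusted p = 0.157), and Marco differed by -0.01 ± 0.39, a sign that turned under other scalings. No gene of the 10 was called by limma, against 7.89% of all genes, and 4 had an unadjusted p below 0.05, against 26.1% of all genes. No gene of the 10 had all 8 mice with the deletion above the other 8, against 1.05% of all genes with no overlap. Without wild type 4 the median over the 10 genes was 0.24 (range -0.24 to 0.41), again with 9 higher.

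The C1q call depended on the tool and, for C1qb, on the mice included. edgeR on the recovered whole reads gave adjusted p of 0.0584, 0.0570 and 0.0662 for C1qa, C1qb and C1qc, while DESeq2 gave 0.0197, 0.0184 and 0.0246 at changes of 0.54, 0.56 and 0.54. Over all genes DESeq2 called 1803, limma 1205 and edgeR 1089. The 3 chains vary together, so their calls are not independent of each other. Without Ncoa5+/-Tip30+/- 1, limma called C1qb at 0.63 (adjusted p = 0.0369). Without wild type 4 the 3 changes were 0.39, 0.41 and 0.39 (lowest adjusted p = 0.0829).

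Averaged over both Ncoa5 backgrounds, the Tip30 deletion gave a median change of -0.01 with 4 of 10 genes higher. Marco differed by -0.71 ± 0.39 (adjusted p = 0.494) and Adgre1 by -0.36 ± 0.22 (adjusted p = 0.538, limma). None of the 10 was called by limma, edgeR or DESeq2, against 0.131% of all genes called by limma. None had an unadjusted p below 0.05 (limma), against 11.8% of all genes. The interaction of the deletions, which is how far the change in Ncoa5+/-Tip30+/- departs from the sum of the changes in Ncoa5+/- and in Tip30+/-, was below 0 for all 10, with a median of -0.42 and a range of -0.81 (Vsig4) to -0.21 (C1qa). The limma fit called 0% of all genes for the interaction, with 650 genes and none of the 10 at an unadjusted p below 0.05, and edgeR and DESeq2 called none of the 10. Without wild type 4 its median was -0.12.

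The differences from wild type depended on the range of mouse numbers. Below 4300, Ncoa5+/- differed from wild type by a median of -0.11 over the 10 genes, with 4 higher (2 mice against 2). At 4300 or above the median was 1.31, all 10 were higher, and the range was 1.13 to 1.63 (2 against 2). Tip30+/- gave -0.18 (3 against 2) and 0.43 (1 against 2), and Ncoa5+/-Tip30+/- gave -0.01 and 0.79 (2 against 2 each). With too few mice in each range, no test of these values was made. The wild types of the higher range are wild type 3 and wild type 4. For the Ncoa5 deletion over both backgrounds the medians were -0.02 (4 mice against 5) and 0.79 (4 against 3). Within it the C1q chains kept their sign in both ranges, at 0.34 and 0.75 for C1qa, 0.27 and 0.83 for C1qb, and 0.31 and 0.76 for C1qc. So did Clec4f (0.13 and 0.79) and Timd4 (0.0099 and 0.78), and the other genes were lower below 4300. With the range as a covariate, adjusted p of the 3 chains were 0.0532, 0.0653 and 0.0728 (limma).

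**Figure D3:**
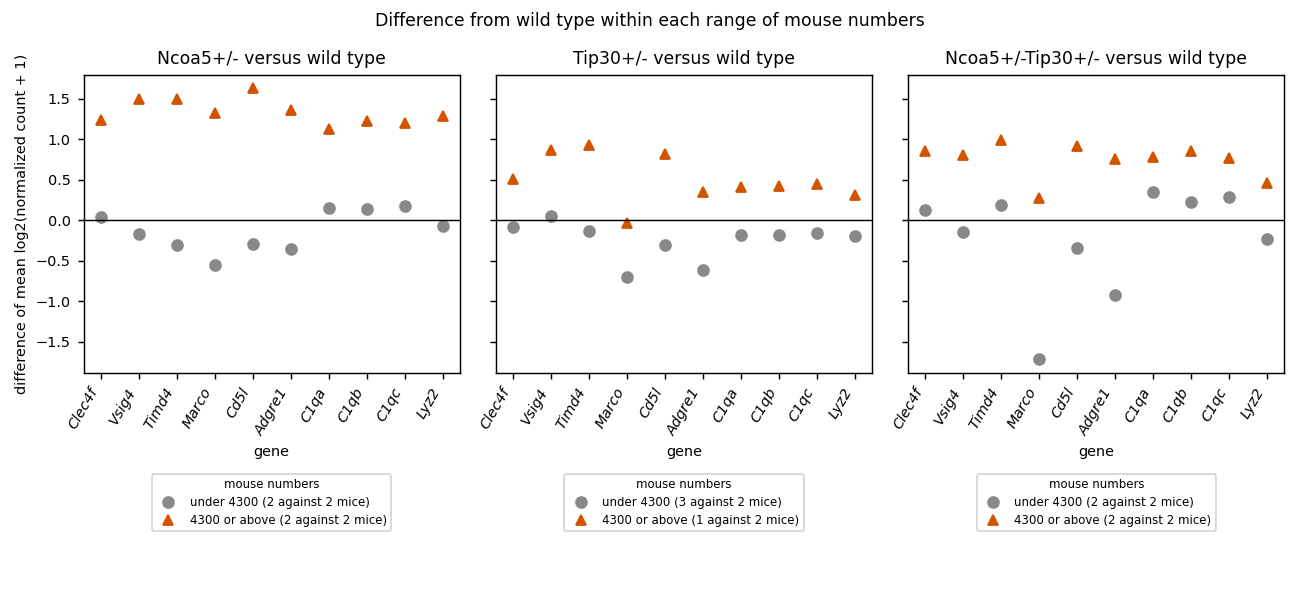
Difference from wild type of the mean log2(normalized count + 1) of each gene (y axis) among mice numbered under 4300 (circles) and 4300 or above (triangles), for the 3 genotypes with a deletion. In the left panel all 10 triangles lie between 1.13 and 1.63, and the circles lie on both sides of 0.

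Without the 4 livers lowest in Zhx2, which are wild type 1 and 2 and Ncoa5+/- 1 and 4, the median difference of Ncoa5+/- from wild type was 1.14. This leaves wild type 3 and 4 as the only wild types, and the lowest adjusted p was 0.172 (limma). For the Ncoa5 deletion over both backgrounds the median was then 0.69 and the lowest adjusted p 0.0631, that of C1qb.

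The 10 genes varied together. Pearson's r between log2 levels over the 16 livers ranged from 0.38 to 0.99 among the 45 pairs, with a median of 0.82, and from 0.63 to 0.99 in the 36 pairs without Marco. All points share genotype groups and 2 extreme mice. After genotype means were subtracted the median was 0.84. Among mice numbered below 4300 (n = 9) the median r of the 45 pairs was 0.53, from -0.00070 to 0.99, and among the others (n = 7) it was 0.95, or 0.89 without wild type 4 (n = 6).

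The C1q chains were the tightest, at r of 0.98 to 0.99 and Spearman's rho of 0.97 to 0.99, each with a permutation p of 1e-05, the smallest that 100000 resamples give (Benjamini-Hochberg adjusted over 45 pairs, 5e-05 for r). Without the 2 mice farthest from the median, wild type 4 and Ncoa5+/-Tip30+/- 2, r was 0.96 to 0.98. Within the lower and higher ranges of mouse numbers it was 0.98 to 0.99 in each. Clec4f, on another chromosome, followed C1qc nearly as closely, with r = 0.98 and rho = 0.96 (permutation p = 1e-05 each), and r = 0.95 without wild type 4 and Ncoa5+/- 3. Vsig4 and Timd4 had r = 0.90 and rho = 0.76 (permutation p = 3e-05 and 0.00093), and r = 0.62 without the same 2 mice.

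Marco stood apart. Its r with the other 9 genes was 0.38 to 0.74, with a highest adjusted permutation p of 0.149. For r the adjusted p was 0.0015 with Adgre1, 0.0154 with Lyz2 and Cd5l, 0.0288 with Vsig4 and above 0.05 with the rest. For rho it was below 0.05 only with Adgre1 (0.0079) and Lyz2 (0.0272). Its r with C1qa was 0.38, and 0.04 without wild type 4 and Ncoa5+/-Tip30+/- 1. With 5 to 59 reads per library, counting error of Marco is larger than that of the rest. Adgre1 was its closest partner, with r = 0.74 and rho = 0.70 (permutation p = 0.00104 and 0.00334), and r = 0.52 without those 2 mice.

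**Figure D4:**
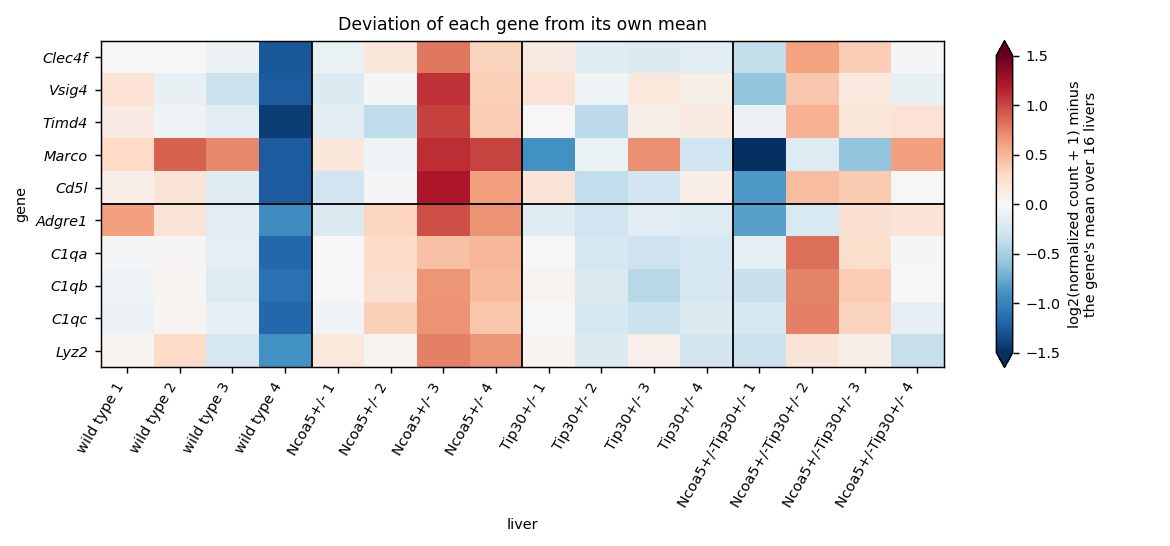
Log2(normalized count + 1) of each gene (down the plot) minus its own mean over 16 livers (across, by genotype), where red is above and blue below the mean and values past 1.5 in either direction take the end colour. Wild type 4 is blue and Ncoa5+/- 3 red for all 10 genes, and Marco varies apart from the others.

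Ratios within a liver do not depend on library scaling. C1qb was 0.674 to 0.797 of C1qc in every liver, with an SD of the log2 ratio of 0.0667, which is 1.12 times the 0.0595 that counting error alone gives. C1qa was 1.09 to 1.36 of C1qc, at 1.63 times counting error. By contrast C1qa was 1.18 to 2.42 of Lyz2, at 4.98 times counting error, and Cd5l was 0.573 to 1.59 of C1qa, at 6.71 times. The C1q chains thus kept close to a fixed proportion, while C1qa varied more against Lyz2 and Cd5l. This was not limited to C1q pairs. Clec4f to C1qc had an SD of 0.100, at 2.16 times counting error. Vsig4 to Timd4 was at 1.70 times, with an SD of 0.223. At the same SD, this multiple is larger for genes with more reads.

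A few ratios separated genotypes, and these were picked out after their values were seen, so they carry no test. Of 45 gene pairs, ratios with no overlap numbered 0 for Ncoa5+/- against wild type, 2 for Tip30+/- against wild type and 2 for Ncoa5+/-Tip30+/- against wild type. There were 0 for Ncoa5+/-Tip30+/- against Ncoa5+/- and 7 against Tip30+/-. No such count was made for ratios of other genes. Of single genes, 16.2% did not overlap in Ncoa5+/-Tip30+/- against Tip30+/-. Against wild type that share was 10.7% for Ncoa5+/-Tip30+/- and 4.44% for Tip30+/-. C1qa was 1.74 to 2.42 of Lyz2 in Ncoa5+/-Tip30+/-, at most 1.69 in wild type and 1.18 to 1.58 in Tip30+/-, while Ncoa5+/- overlapped all of these. Vsig4 was 0.206 to 0.264 of C1qa in Ncoa5+/-Tip30+/- and 0.317 to 0.386 in Tip30+/-. Vsig4 was likewise lower against C1qb, C1qc and Clec4f in Ncoa5+/-Tip30+/- than in Tip30+/-. The pairs share genes, so the 7 are not independent of each other.

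**Figure D5:**
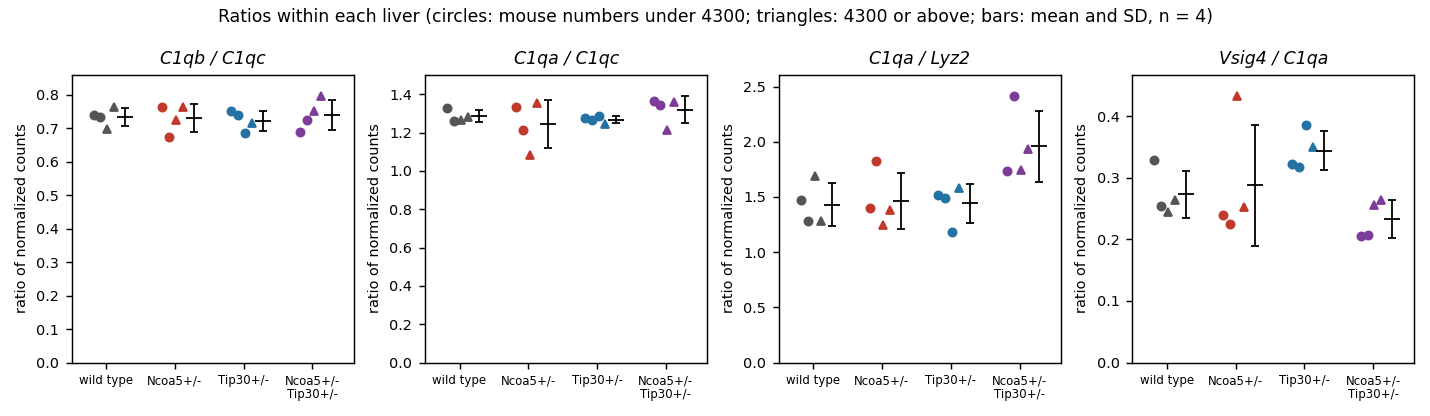
Ratios of normalized counts within each liver (y axis, linear, from 0) by genotype, with circles for mouse numbers under 4300, triangles for 4300 or above, and mean and SD of 4 mice. C1qb to C1qc stays between 0.674 and 0.797, while C1qa to Lyz2 is 1.74 or higher in all 4 Ncoa5+/-Tip30+/- livers.

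The balance of resident and general markers overlapped between genotypes. The mean log2 of the 5 resident genes minus that of the 5 general genes was -1.08 ± 0.17 in wild type, -1.12 ± 0.27 in Ncoa5+/-, -0.98 ± 0.17 in Tip30+/- and -1.22 ± 0.26 in Ncoa5+/-Tip30+/- (SD, n = 4). The lowest single value, -1.52, was that of Ncoa5+/-Tip30+/- 1, the liver lowest in Marco. With Marco left out the difference was -0.21 ± 0.11 in wild type and -0.20 ± 0.27 in Ncoa5+/-. It was then 0.01 ± 0.12 in Tip30+/- and -0.12 ± 0.08 in Ncoa5+/-Tip30+/-. The order of the genotypes thus depended on Marco, and they overlapped either way.

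Per kilobase of exon, C1qa was the most abundant with 1856 normalized counts averaged over 16 livers, followed by Clec4f with 1393 and C1qb with 1018. Lyz2 (943), Cd5l (915) and C1qc (785) came next, then Vsig4 (366), Timd4 (82.3), Adgre1 (63.0) and Marco (17.0). C1qa exceeded Clec4f, and Clec4f exceeded C1qb, in 16 of 16 livers. The order of the middle genes was not stable: C1qb exceeded Lyz2 in 10 of 16, Lyz2 exceeded Cd5l in 10 of 16 and Cd5l exceeded C1qc in 12 of 16. Timd4 exceeded Adgre1 in 13 of 16. Adgre1 thus ranked above Marco alone.

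Other Kupffer cell genes, a list of 18 with Cd163, Folr2, Clec1b and the red-cell iron genes Hmox1 and Slc40a1, had a median log2 change of 0.15 with the Ncoa5 deletion. Of these, 13 of 18 were higher, 2 rose and none fell, a share called near the 7.89% of all genes in this comparison. The 2 were Spic, the transcription factor of iron-recycling macrophages (0.72 ± 0.19, adjusted p = 0.0323), and Il18bp, the secreted inhibitor of interleukin 18 (0.62 ± 0.17, adjusted p = 0.0359, limma). Spic was 20.6 to 50.1 normalized counts in wild type and 28.1 to 45.7 in Tip30+/-, against 40.7 to 73.0 in Ncoa5+/- and 39.2 to 64.9 in Ncoa5+/-Tip30+/-, so the groups overlapped. Each of the 2 calls was lost in 8 of the 16 fits that left out 1 mouse, that of Spic at 0.61 (adjusted p = 0.0624) without wild type 4. Cd163 itself differed by 0.08 ± 0.23 (adjusted p = 0.859).

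Other macrophage and monocyte genes numbered 26 tested of 28, of which 25 were higher with the Ncoa5 deletion, with a median of 0.49 and 4 that rose, beside the 7.89% called of all genes. Itgax, the CD11c integrin subunit found on dendritic cells and some macrophages, rose by 1.54 ± 0.26 (adjusted p = 0.00193, limma). It was 10.5 to 17.4 normalized counts in wild type and 4.10 to 16.1 in Tip30+/-, and 22.9 to 49.7 in Ncoa5+/- and 25.4 to 46.4 in Ncoa5+/-Tip30+/-. All 8 mice with the deletion lay above all 8 without it, beside 1.05% of all genes with no overlap. The change was 1.38 among mice numbered below 4300 and 2.01 among the others. Itgax stayed called in each fit that left out a mouse.

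The other 3 that rose were Aif1, the macrophage protein IBA1 (0.76 ± 0.19, adjusted p = 0.0267), Fcer1g, the shared Fc receptor signalling chain (0.53 ± 0.14, adjusted p = 0.0301), and Plac8 (0.53 ± 0.15, adjusted p = 0.0419, limma). Their calls were lost in 5, 4 and 11 of the 16 fits that left out a mouse, and without wild type 4 the list had 2 called. DESeq2 called 10 of the 26 and edgeR 4. Over all genes the calls also moved, from 1205 in limma to 662 without wild type 4, 1803 in DESeq2 and 1089 in edgeR. Csf1r, the receptor for colony stimulating factor 1, differed by 0.34 ± 0.20 (adjusted p = 0.302), and Ccr2, the receptor of blood monocytes, by 0.50 ± 0.22 (adjusted p = 0.158). Without Ncoa5+/- 3 the other Kupffer cell list had 10 of 18 genes higher and a median of 0.051.

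Among 17 genes for macrophage growth and niche signals, 2 rose with the Ncoa5 deletion and none fell, with a median of 0.29, a share called not far from the 7.89% of all genes. Notch1, a receptor for the Notch ligands of the sinusoid, rose by 1.09 ± 0.15 (adjusted p = 0.000294, limma). It was 378 to 599 normalized counts in wild type and 406 to 641 in Tip30+/-, and 763 to 1402 in Ncoa5+/- and 893 to 1403 in Ncoa5+/-Tip30+/-. Csf2ra, the receptor chain for granulocyte-macrophage colony stimulating factor, rose by 0.82 ± 0.15 (adjusted p = 0.00372), from 138 to 286 and 182 to 274 in mice without the deletion to 311 to 423 and 336 to 548 in those with it. For both genes all 8 mice with the deletion lay above the other 8, and both stayed called in each fit that left out a mouse. Notch1 is expressed by many liver cells, and the cells behind its rise were not resolved. Csf1 differed by 0.30 ± 0.14 (adjusted p = 0.166).

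The early complement list holds partners of C1q such as its proteases and C3, made mostly by hepatocytes. It also holds receptors and membrane regulators (C5ar1, C3ar1, Cd55 and Cr1l), so it is not a list of hepatocyte products alone. Of its 12 genes none was called with the Ncoa5 deletion by limma, edgeR or DESeq2, and the median was -0.05. C1ra and C1s1, the proteases that C1q carries, differed by -0.02 ± 0.08 and 0.05 ± 0.09 (adjusted p = 0.927 and 0.754). C3 differed by -0.33 ± 0.12 (adjusted p = 0.0946, limma).

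Markers of other cell types were measured in the same livers. T and NK cell genes rose in 7 of 10 tested with the Ncoa5 deletion, with a median of 1.33, beside 7.89% of all genes called. Without wild type 4 the list had 5 called. The leading genes over all 16 livers were Cd8a (3.15 ± 0.37, adjusted p = 7.0e-05), Cd8b1 (2.79, adjusted p = 0.000198), Nkg7 (1.41, adjusted p = 0.000706) and Trac (1.47, adjusted p = 0.0160, limma). Cd8a was 0.860 to 10.5 normalized counts in wild type and 2.56 to 7.03 in Tip30+/-. Cd8b1 was at most 4.21 and 3.89 there, and Nkg7 at most 13.1 and 9.72. The filter took the mean of all 16 livers, so Cd8a, Cd8b1 and Nkg7 passed it through the mice where they were high. With no filter 7 of 13 genes were called, and at a mean of at least 50 the list had 0 tested. The 13 genes of this list summed to 70.5 to 168 normalized counts in wild type, 242 to 395 in Ncoa5+/-, 104 to 146 in Tip30+/- and 174 to 377 in Ncoa5+/-Tip30+/-. Cd8b1, Klrb1c and Ncr1 were at 0 in at least 1 library. Since Itgax, Aif1, Fcer1g and Plac8 are also found in lymphoid or dendritic cells, the part of these cells in their rise was not tested.

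The dendritic list had 1 of 5 called, beside 7.89% of all genes. This was Clec9a (0.66, adjusted p = 0.0446), lost in 12 of the 16 fits that left out a mouse. The list summed to 165 to 254, 260 to 320, 178 to 281 and 280 to 379 normalized counts in the same order of genotypes. The neutrophil list had 0 of 4 called (limma, edgeR and DESeq2), with Csf3r at 0.58 (adjusted p = 0.0958) and S100a9 at 0.66 (adjusted p = 0.129). It summed to 77.4 to 228, 110 to 354, 57.3 to 113 and 127 to 194, and Ly6g, Mpo, Elane, Camp, Ngp, Cxcr2 and Mmp8 were at 0 in at least 1 library. B and plasma cell genes had 0 of 7 called, with Cd79a at 0.63 (adjusted p = 0.326) and Jchain at -0.26 (adjusted p = 0.451).

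Of the resident liver cells, stellate cell genes had 3 of 10 that rose, beside 7.89% of all genes called, or 1 without wild type 4. They were Col1a1 (0.97, adjusted p = 0.0112), Hand2 (0.53, adjusted p = 0.0301) and Col3a1 (0.58, adjusted p = 0.0492). Hand2 was lost in 8 and Col3a1 in 12 of the 16 fits that left out a mouse, and Col1a1 stayed called in each. The cholangiocyte list had 1 of 6, beside the same 7.89%. It was Spp1, which macrophages can also express (0.97, adjusted p = 0.00225, limma). None of 11 sinusoidal endothelial genes was called, with Clec4g at 0.30 (adjusted p = 0.151) and Oit3 at 0.20 (adjusted p = 0.543). None of 9 hepatocyte genes was called, with Hnf4a at -0.36 (adjusted p = 0.0788) and Apob at -0.32 (adjusted p = 0.154).

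Across the 16 livers, the mean log2 level of the 10 genes was set against 15 measures. It followed the other Kupffer cell genes with r = 0.79 and rho = 0.78 (permutation p = 5e-05 and 0.00072, adjusted 0.00075 and 0.0054), and r = 0.70 without wild type 4 and Ncoa5+/- 3. Within the 2 ranges of mouse numbers this r was 0.83 and 0.97. With other macrophage and monocyte genes r was 0.76 and rho 0.72 (permutation p = 0.00037 and 0.00224, adjusted 0.00278 and 0.0105), r was 0.76 without the same 2 mice, and 0.77 and 0.90 within the ranges. With growth and niche signals r was 0.72 and rho 0.71 (permutation p = 0.00273 and 0.00281, adjusted 0.0102 and 0.0105), r was 0.55 without them, and 0.44 and 0.93 within the ranges. The mean also followed the sinusoidal endothelial genes, with r = 0.74 and rho = 0.85 (permutation p = 0.0009 and 8e-05, adjusted 0.0045 and 0.0012), r = 0.70 without the same 2 mice, and 0.75 and 0.86 within the ranges. Endothelial genes summed to 5720 to 12057 normalized counts in wild type, 6434 to 10236 in Ncoa5+/-, 6931 to 8708 in Tip30+/- and 7303 to 10825 in Ncoa5+/-Tip30+/-, with none at 0. How much of the variation in the 10 genes comes with a larger share of sinusoidal cells in a piece of liver was not tested.

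The 10 genes' mean had r = -0.18 and rho = -0.08 with hepatocyte genes (permutation p = 0.504 and 0.761, adjusted 0.582 and 0.815, and r = -0.17 without the 2 mice). With the number of reads r was -0.15 and rho 0.24 (permutation p = 0.564 and 0.374, adjusted 0.604 and 0.472), and r was 0.44 without those mice. With the share of mitochondrial reads r was 0.10 and rho 0.16 (permutation p = 0.725 and 0.549, adjusted 0.725 and 0.634), and 0.65 without them. With Zhx2 r was -0.21 and rho -0.36 (permutation p = 0.438 and 0.170, adjusted 0.547 and 0.255), and -0.46 without them. Wild type 4 had the most reads of all libraries. Of the 12 lists of other genes it had the lowest mean level in 8, including T and NK cell, dendritic, endothelial, stellate and cholangiocyte genes, and the highest in 1, hepatocyte genes. Whether that mix of cells goes with its low values of the 10 genes was not tested.

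The genes most like the 10 were sought among 10967 genes by Pearson's r with their mean after genotype means were subtracted, a description over 16 livers that share genotypes. The closest was Cfp, properdin, which stabilizes the complement convertase (0.97), then Ctss, the lysosomal protease cathepsin S (0.96). Treml4, Laptm5, Slc7a8 and P2ry13 followed at 0.94 to 0.95. Csf1r and the lysosomal protein gene Cd68 had 0.94, Sdc3 0.94 and Axl, a receptor for dying cells, 0.93. Without wild type 4 and Ncoa5+/- 3, and with no genotype means subtracted, r ran from 0.72 for P2ry13 to 0.93 for Laptm5. That of Cfp was then 0.83, that of Cd68 0.76 and that of Sdc3 0.78.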

How the data were processed

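The deposited table holds a signal per gene and library, DESeq2 normalized counts that the authors made by dividing read counts by a size factor. Per the submitters' processing notes, Trimmomatic 0.36, STAR 2.6.0c, DESeq2 1.28.1 and the build GRCm38 were used. The sources used here name no counting program and no annotation. In each library 100% of the values proved to be whole multiples of a single step (within 0.0001), so whole reads could be recovered for the edgeR and DESeq2 alternatives. Tip30+/- 2 has a size factor of 0.996. The table has 0 columns of other samples.

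The 10 genes, the lists and the alternatives were chosen with earlier results of these data known. Genes with a mean of at least 10 were tested with limma 3.58.1 (trend, robust, 2-sided) on log2(normalized count + 1), as 1 model of 4 group means over 16 libraries, with Benjamini-Hochberg adjustment over all genes. A call is an adjusted p below 0.05, and folds are on the log2(value + 1) scale. Adjusted p values without a tool's name come from this fit. Alternatives used edgeR 4.0.16, DESeq2 1.42.0, TMM and upper-quartile scaling, pseudocounts of 0.5 and 5, no filter and a mean of 50, only the groups compared, the mouse-number covariate, no livers lowest in Zhx2, and each mouse left out. List counts under these settings were an alternative chosen after seeing the data. The chain was tested on simulated data. Of each other list, the up to 4 genes passing for the Ncoa5 deletion are named, otherwise the 2 of smallest p, of which 1 is not reported here; Cd163, Csf1r, Ccr2, Csf1, C1ra and C1s1 were added for their known roles after values were seen. The 10 most alike genes needed a symbol and a mean of at least 50. Exon lengths and positions come from GENCODE, and p-values measure the spread between single mice. Ratios of recovered reads were set against Poisson counting error.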

Additional observations from a re-analysis of the deposited data

Results flagged for a closer look

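In 40 groups of 4 mice, 1 for each gene and genotype, 2 held a mouse far from the other 3 by Dixon's ratio past its 95% critical value, and chance marks about 5% of groups. Both were for Clec4f. Wild type 4 had 1364.1 normalized counts where the other wild types had 3092 to 3308, and Tip30+/- 1 had 3614.74 where the other Tip30+/- mice had 2848 to 2938. Wild type 4 was also lowest for 8 more of the 10 genes without passing the critical value.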

How the results depend on the processing

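No paired analysis was possible because the labels give no replicate numbers shared between genotypes. None of the 10 genes was called in any comparison under any alternative, with 2 exceptions in the Ncoa5 deletion: DESeq2 called 3, the C1q chains, and leaving out 1 mouse gave 0 to 1 called, with C1qb called without Ncoa5+/-Tip30+/- replicate 1. The cause was not tested. Small changes that were not called turned in sign. Timd4 in Ncoa5+/-Tip30+/- against Ncoa5+/- was 0.015 with TMM and 0.028 with upper-quartile scaling. Lyz2 in Ncoa5+/-Tip30+/- against Tip30+/- was 0.025 with TMM, 0.084 with upper-quartile scaling, 0.037 in edgeR, 0.023 in DESeq2 and 0.019 with the mouse-number covariate. Marco in the Ncoa5 deletion was 0.0049 with TMM, 0.052 with upper-quartile scaling, 0.011 with a pseudocount of 5, 0.045 in edgeR and 0.036 in DESeq2. Without the 4 livers lowest in Zhx2, Marco was 0.19 in the Ncoa5 deletion and 0.11 in Tip30+/- against wild type. Adgre1 was 0.34 in Tip30+/- and 0.39 in Ncoa5+/-Tip30+/- against wild type. In the Tip30 deletion Cd5l was then 0.019, C1qb 0.10, C1qc 0.067 and Lyz2 0.00031. Over fits that each left out 1 mouse, 31 changes turned in sign in at least 1 fit, most often without wild type 4. For Tip30+/- against wild type the ranges were Adgre1 -0.42 to 0.093, Clec4f -0.074 to 0.35, Timd4 -0.0088 to 0.50, Cd5l -0.12 to 0.36, C1qa -0.15 to 0.25, C1qb -0.13 to 0.26, C1qc -0.13 to 0.28, Lyz2 -0.11 to 0.29. For Ncoa5+/-Tip30+/- against wild type the ranges were Adgre1 -0.37 to 0.15, Cd5l -0.030 to 0.58, Lyz2 -0.12 to 0.28. For the Ncoa5 deletion the ranges were Marco -0.24 to 0.24. For the Tip30 deletion the ranges were C1qb -0.14 to 0.080, C1qc -0.15 to 0.065, Clec4f -0.11 to 0.13, Vsig4 -0.081 to 0.19, Timd4 -0.0068 to 0.30, C1qa -0.11 to 0.090, Cd5l -0.25 to 0.054. For Ncoa5+/- against wild type the ranges were Marco -0.085 to 0.63. For the interaction the ranges were Timd4 -0.54 to 0.0040, C1qa -0.41 to 0.071. For Ncoa5+/-Tip30+/- against Ncoa5+/- the ranges were Clec4f -0.30 to 0.020, Timd4 -0.20 to 0.26, C1qa -0.28 to 0.048, C1qb -0.33 to 0.029. For Ncoa5+/-Tip30+/- against Tip30+/- the ranges were Lyz2 -0.10 to 0.078, Vsig4 -0.29 to 0.045, Marco -0.79 to 0.097, Cd5l -0.062 to 0.38, Adgre1 -0.075 to 0.27. Over all genes, the Ncoa5 deletion had 1205 calls in limma, 1803 in DESeq2, 1937 with the mouse-number covariate and 602 without the 4 livers lowest in Zhx2. It had 610 (without Ncoa5+/-Tip30+/- 2) to 1602 (without Ncoa5+/-Tip30+/- 4) when 1 mouse was left out. With 4 mice a group and 5 to 59 reads of Marco, differences smaller than the intervals given could not be detected.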
